A study of Mus musculus with 40 samples.

Results

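The comparison described here asked how far the effect of culture without cytokine on spleen B cell mRNA differed between wild-type mice and Dock10 knockout mice. It was chosen by its groups and not by measured values, and it used 20 of the 40 arrays of the series. All mice were C57BL/6 and 12 weeks old. The group WT_Pre held wild-type B cells taken directly after isolation, and WT_Ctrl held wild-type B cells after 18 h of culture with nothing added. KO_Pre and KO_Ctrl were the same states in the knockout, and each of the 4 groups had 5 arrays, 1 for each mouse numbered 6 to 10. B cells were isolated from spleen by negative selection, so cells of other types may remain. Culture was in RPMI-1640 medium with fetal calf serum. The sources used here do not give the deleted part of Dock10 or the way in which it was deleted. Cells of the same mice cultured with IL-4 at 10 ng/ml gave 10 further arrays, which entered the fit only for its estimate of the spread.

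Every array compared a test sample in Cy5 with a common reference in Cy3, by the labels a pool of RNA of the KO_Pre samples of mice 6 to 10. A value thus sets a sample against what the labels call uncultured knockout B cells on the log2 scale, and the reference cancels in each difference between groups. The culture effect of a genotype is its mean in Ctrl minus its mean in Pre. The contrast is the culture effect in knockout cells minus that in wild-type cells, so a contrast below 0 means that a transcript fell more, or rose less, in knockout cells. Ratios give no absolute level, so the B cell label could not be checked by the level of marker genes, only by how the ratios of those markers moved. In bulk samples, fewer cells of a type and less RNA per cell cannot be told apart. Mice are separate animals, and precision is limited by 5 arrays a group.

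Dock10 is a guanine nucleotide exchange factor of the DOCK family. Such proteins load the small GTPases Rac and Cdc42 with GTP, and these GTPases steer actin assembly, adhesion and migration in lymphocytes. Resting B cells depend on signals from their niche, such as the survival factor BAFF and tonic signalling by the B cell receptor, and lose them when placed in medium without cytokine. Tonic type I interferon keeps antiviral genes at a basal level in many cells through factors that include Stat2 and Irf9. The integrated stress response, which runs through the factor Atf4, raises genes of amino acid supply when nutrients are short.

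Several arrays stood apart. In the WT_Pre and KO_Pre arrays numbered 10, Xist, which coats the silenced X chromosome, stood at 4.77 and 4.99, and the Y-linked Eif2s3y had -10.70 and -10.71. In the other 18 arrays Xist ranged from -1.59 to 0.85 and Eif2s3y from -0.15 to 0.51. The arrays numbered 10 before and after culture therefore disagreed in sex-linked transcripts, although they carry the same mouse number. RNA that is 1 of 5 equal parts of a pool can exceed that pool by at most 2.32 on the log2 scale, so the Xist ratio of KO_Pre array 10 goes against its RNA being an equal part of the reference. The arrays before culture of mice 1 to 5, which are not compared here, showed both patterns. Numbers 1 to 4 of both genotypes had Xist at 4.74 to 5.92 and Eif2s3y at -11.14 to -10.10. Number 5 had Xist at -0.93 in wild-type and -1.37 in knockout, and Eif2s3y at 0.68 and 0.07. What these arrays share was not tested. The median absolute deviation of the log2 ratios was 0.50 and 0.53 in these 2 arrays, 0.16 to 0.24 in the other arrays before culture and 0.46 to 0.80 in the cultured arrays. WT_Ctrl array 6 lay apart from the other WT_Ctrl arrays in many genes named below. Medians of the arrays ranged from -0.19 to 0.00. Dark corner controls, which bind no target, had ratios of -1.29 to -0.82 in WT_Ctrl and -1.79 to -0.72 in KO_Ctrl. The first spike-in probe lay between -0.59 and 0.40 in WT_Ctrl and between 0.03 and 0.94 in KO_Ctrl. Before culture, without the arrays numbered 10, dark corner ratios were 0.14 to 0.68 in WT_Pre and 0.72 to 1.08 in KO_Pre. Those ranges did not overlap. In the same arrays the spike-in probe had -0.36 to 0.34 in WT_Pre and -0.79 to -0.23 in KO_Pre. The dark corner ratios of the WT_Pre and KO_Pre arrays numbered 10 were -0.91 and -0.86.

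Dock10 was measured first, as a check of the labels. Its log2 ratios were 0.62, 0.36, 0.45, 0.27 and -0.24 in WT_Pre and 0.01, -0.14, -0.12, 0.13 and -0.34 in KO_Pre. After culture they were -0.89, -0.62, -0.37, -0.36 and -0.64 in WT_Ctrl and -1.56, -1.08, -0.91, -1.30 and -0.72 in KO_Ctrl. Culture lowered Dock10 in both genotypes and the knockout arrays lay lower on average in both states, but the genotypes overlapped before and after culture. The contrast was -0.16 (SE 0.24, limma adjusted p = 0.784) and turned to 0.36 with quantile normalization and 0.35 with scale normalization. The 3 Dock10 probes had contrasts of -0.24, -0.06 and -0.17. The probes may lie outside the deleted part, so this measurement neither marks nor contradicts the genotype. Of 13 measured DOCK factors and their ELMO partners, 1 passed the test, which is near the share of 6.68% over all genes in either direction. It was Dock8, an exchange factor for Cdc42 in leukocytes (-0.74, SE 0.17, adjusted p = 0.0069).

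More genes passed the culture test in knockout than in wild-type cells, an order that turned with the spike-in ratio as covariate. In wild-type cells 2879 of 21892 genes rose (13.2%) and 5775 fell (26.4%), and in knockout cells 4330 rose (19.8%) and 6825 fell (31.2%), at a limma adjusted p under 0.05. The sums were 8654 in wild-type and 11155 in knockout cells, and 9315 and 8957 with that covariate. The median effect over all genes was -0.149 in wild-type and -0.119 in knockout cells, so a culture effect near those values is no shift against the bulk of genes. Both effects were measured on separate mice, and across genes their Pearson correlation was 0.802 and their Spearman correlation 0.766, where genes are not independent replicates. The contrast itself passed for 1462 of 21892 genes (6.68%). It was above 0 for 485 (2.22%) and below 0 for 977 (4.46%), and 170 and 366 of these were at least 1 in size on the log2 scale. These shares, 2.22% above 0 and 4.46% below, are the background for the count of each list below.

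The genes below 0 were mostly genes that culture lowered in the knockout. Of the 977, 555 fell in knockout cells and were not called in wild-type cells, 289 fell in both genotypes, and 50 rose in wild-type and fell in knockout cells. A further 71 rose in wild-type cells and were not called in the knockout. Of the 485 above 0, 232 rose in knockout cells and were not called in wild-type cells, 96 rose in both, 104 fell in wild-type cells and were not called in the knockout, and 34 fell in wild-type and rose in knockout cells. The knockout effect was the larger in size for 874 of the 977 and for 342 of the 485. Over all genes the culture effect had an SD of 0.74 in wild-type and 0.881 in knockout cells, so knockout effects spread more widely in general. In the same fit, with 5 arrays a group, 0 genes differed between KO_Pre and WT_Pre, with 873 at an unadjusted p under 0.05 and a smallest adjusted p of 0.437. KO_Ctrl and WT_Ctrl differed at 3350 genes. Before culture, the genotypes lay within 0.5 of each other for 962 of the 977 genes and 433 of the 485. Over all genes the difference between KO_Pre and WT_Pre had a median of 0.006 and an SD of 0.248. The share of all genes within 0.5 was not counted, so these counts show no excess or lack.

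**Figure D1:**
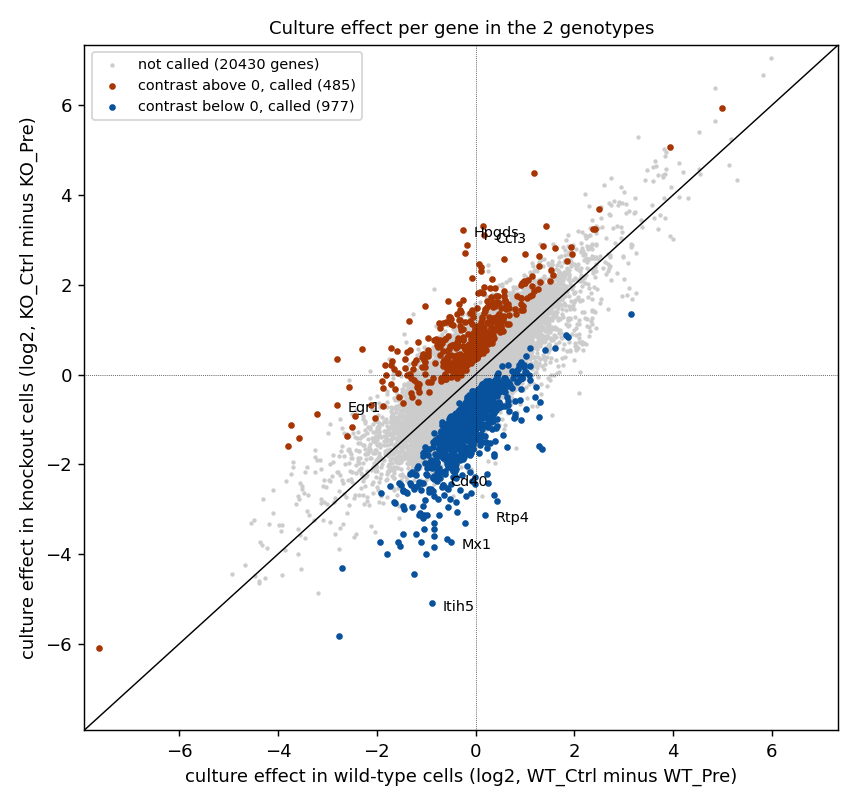
Culture effect of each gene (log2) in wild-type cells on the horizontal axis and in knockout cells on the vertical axis, with the line of equal effects. The 977 genes called below 0 lie under the line, mostly where the knockout effect is negative, and the 485 called above 0 lie over it.

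The number of calls depended on the scaling between arrays. Quantile normalization left 359 calls (70 above 0 and 289 below, 19.5% above 0 against 33.2%), and scale normalization left 225 (40 above and 185 below, 17.8% above 0). Both give every array the same spread, whereas the deposited ratios spread less before culture than after it. Of the 359 and 225 genes, 334 and 213 were among the 1462 with the same direction. Without mouse number 10 there were 814 calls, and without wild-type mouse 6 there were 1923. The dark corner ratio as covariate gave 1682 calls, and the spike-in ratio as covariate gave 864.

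The 10 lowest contrasts held several genes known as interferon-induced. Itih5, which encodes an inter-alpha-trypsin inhibitor heavy chain, had the lowest value (-4.22, SE 0.54, adjusted p = 3.3e-05). Its log2 ratios in KO_Ctrl were -3.68, -5.82, -5.13, -5.14 and -5.25. In WT_Ctrl they were -2.39, -1.01, -0.34, -0.55 and -0.61, and all 10 arrays before culture lay between -0.58 and 0.61. Itih5 thus fell in every knockout array below the lowest wild-type array, which was that of mouse 6. Efna1, which encodes the Eph receptor ligand ephrin-A1, rose with culture in wild-type cells (1.29, adjusted p = 0.015) and fell in knockout cells (-1.59, adjusted p = 0.0023), a contrast of -2.88 (SE 0.58, adjusted p = 0.00244). The remaining 8 of the 10 lowest were Rtp4, Ifit1bl1, Mx1, Cmpk2, Ifit3b, Mx2, Ifi213 and Tnfsf10, between -3.31 and -2.99. Most of these are known as genes that interferon induces, and Tnfsf10 encodes the death receptor ligand TRAIL.

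Interferon-stimulated genes fell during culture in knockout cells, and most did not pass that test in wild-type cells. Of 29 measured members, 23 had a contrast below 0 that passed (background 4.46%) and 0 one above 0, and all 29 estimates were below 0. The median contrast was -1.53, against 0.05 over all genes. Culture lowered 28 of the 29 in knockout cells (median -1.78) and 8 of the 29 in wild-type cells (median -0.45). The median over the list in each array was -2.19, -2.01, -1.93, -1.86 and -1.92 in KO_Ctrl and -1.32, 0.40, -0.39, -0.16 and -0.23 in WT_Ctrl. Before culture it was -0.35, 0.25, 0.18, -0.07 and 0.17 in WT_Pre and -0.05 to 0.07 in KO_Pre. The KO_Ctrl arrays lay below all WT_Ctrl arrays, and the WT_Ctrl array of mouse 6 lay between them and the other WT_Ctrl arrays.

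Rtp4, a transmembrane chaperone gene induced by interferon, shows the pattern of the list. Its log2 ratios were -3.48, -3.62, -3.42, -3.11 and -3.29 in KO_Ctrl and -1.69, 0.85, -0.01, 0.06 and 0.01 in WT_Ctrl. In WT_Pre they were -1.37, 0.43, -0.10, -0.34 and -0.31, and in KO_Pre they lay between -0.41 and 0.01. All KO_Ctrl arrays lay far below the others, and mouse 6 was the lowest wild-type animal in both states. The contrast was -3.31 (SE 0.54, adjusted p = 0.000355). Mx1, a GTPase gene induced by interferon, fell in knockout cells (-3.73, adjusted p = 8.3e-07) and had an effect of -0.50 in wild-type cells (adjusted p = 0.44), a contrast of -3.22 (SE 0.70, adjusted p = 0.00413). Cmpk2, a mitochondrial nucleotide kinase gene, fell in both genotypes, with effects of -1.25 and -4.44 in wild-type and knockout cells (contrast -3.19, SE 0.62, adjusted p = 0.00157). Ifit3b of the Ifit family, whose proteins bind foreign RNA, had a contrast of -3.10 (SE 0.46, adjusted p = 0.000139), which passed under every alternative, whereas the calls of Rtp4, Mx1, Mx2 and Cmpk2 were lost with scale normalization.

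The list's calls varied with the settings. There were 12 with quantile normalization, 3 with scale normalization (medians -1.30 and -1.28), 16 with the spike-in ratio as covariate and 11 without mouse number 10. Without wild-type mouse 6 there were 24, with a median of -1.78.

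**Figure D2:**
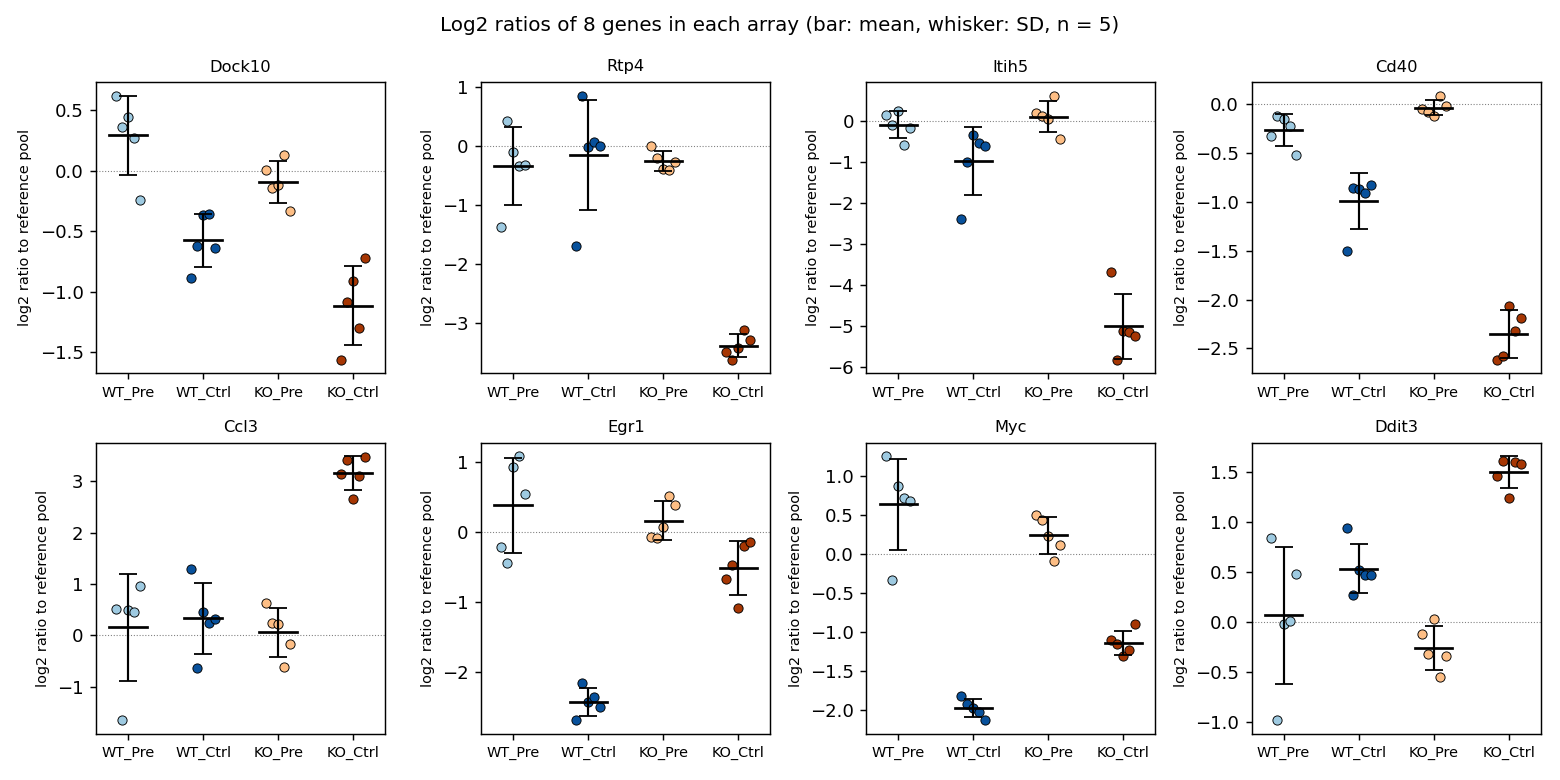
Log2 ratio to the reference pool for 8 genes in each of the 20 arrays, by group, with the mean (bar) and SD (whisker, n = 5). Rtp4, Itih5 and Cd40 lie lower in all KO_Ctrl arrays than in all WT_Ctrl arrays, Ccl3, Egr1, Myc and Ddit3 lie higher, and Dock10 overlaps.

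Some of the factors that carry the interferon signal passed the test. Of 17 measured IRF and STAT factors and interferon receptors, 4 passed below 0 (background 4.46%) and 0 above, with a median contrast of -0.26. Stat2, a part of the complex that interferon activates, had the lowest adjusted p of the named ones. Its log2 ratios were -0.97, -1.11, -0.84, -0.95 and -1.05 in KO_Ctrl and -0.57, 0.40, 0.02, -0.01 and 0.10 in WT_Ctrl, and all 10 arrays before culture lay between -0.28 and 0.09. The groups after culture did not overlap, and the contrast of -1.10 (SE 0.18, adjusted p = 0.000412) passed under every alternative. Irf7, a factor that interferon induces and that drives interferon genes, had a contrast of -1.86 (SE 0.52, adjusted p = 0.028). That call was lost without WT_Pre array 10, WT_Ctrl array 7 or 9, KO_Pre array 8 or KO_Ctrl array 10, with contrasts of -2.23 to -1.51 and adjusted p up to 0.0553. Irf9, the DNA-binding part of the same complex as Stat2, had -1.05 (SE 0.30, adjusted p = 0.0348), lost without WT_Pre array 6, WT_Ctrl array 7, 8 or 10, KO_Pre array 7 or 8, or KO_Ctrl array 7, 9 or 10, with contrasts of -1.32 to -0.89 and adjusted p up to 0.0731.

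The guanylate-binding proteins (GBP) and immunity-related GTPases (IRG) are cell-autonomous defence proteins induced by interferon-gamma and type I interferon. Of 13 measured genes, 9 passed below 0 (background 4.46%) and 0 above, with a median contrast of -1.23. With quantile normalization 5 passed below 0, and with scale normalization 3. The median of the list lay between -1.36 and -1.16 in KO_Ctrl, between -0.85 and 0.01 in WT_Ctrl and between -0.31 and 0.20 before culture. Gbp3 had log2 ratios of -1.31, -1.36, -1.41, -1.13 and -1.65 in KO_Ctrl and -0.32, 0.29, 0.36, 0.33 and 0.28 in WT_Ctrl. Its contrast of -1.70 (SE 0.19, adjusted p = 1.34e-05) and that of Igtp (-1.59, SE 0.28, adjusted p = 0.000686) passed under every alternative. Gbp7 had -1.48 (SE 0.39, adjusted p = 0.0182), and 1 of its 2 probes did not pass. Toll-like receptors and adaptors had 3 of 13 below 0 that passed, Ly86 (-1.06), which encodes the partner of a Toll-like receptor homologue of B cells, Tlr1 (-1.03) and Tlr2 (-0.85). Tlr2 rose in wild-type cells (0.47, adjusted p = 0.0087) and fell in knockout cells (-0.38, adjusted p = 0.025).

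Promoters of some of these genes are printed as a description. The RefSeq table of build GRCm38.p6 holds 250 bases before and 50 after the start of a gene, with several entries for some genes. It was searched on both strands for GAAANNGAA, the core of the interferon-stimulated response element, to which the complex that holds Stat2 and Irf9 binds. Of 18 interferon-stimulated genes with an entry, out of 29 measured, 11 held a match (61.1%). So did 8 of 8 GBP and IRG genes with an entry (100%), out of 13 measured. The share was 5.0% in the B cell receptor signalling list and 4.76% in the ribosome biogenesis list. Among all genes with an entry the share was 9.76% (2638 of 27025), and among those measured here 9.26%. A match is a description of the letters and not a binding site. Both lists were made of genes known as interferon-induced, so a high share could be foreseen and tests nothing. Ifit1 and Ifit3 are shown as the called members of the interferon list with the largest contrast among those with a match, and Gbp3 likewise for the GBP and IRG list, all chosen with their values seen. Capitals mark the matches, which may overlap, all of them on the minus strand of the sequence as printed.
Ifit1, chr19:34640639-34640938, plus strand: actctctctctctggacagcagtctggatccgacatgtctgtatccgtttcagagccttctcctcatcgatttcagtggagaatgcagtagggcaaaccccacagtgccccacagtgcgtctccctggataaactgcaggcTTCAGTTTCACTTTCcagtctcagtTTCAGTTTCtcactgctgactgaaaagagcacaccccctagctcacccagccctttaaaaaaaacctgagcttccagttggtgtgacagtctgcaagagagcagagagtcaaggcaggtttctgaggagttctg
Ifit3, chr19:34583279-34583578, plus strand: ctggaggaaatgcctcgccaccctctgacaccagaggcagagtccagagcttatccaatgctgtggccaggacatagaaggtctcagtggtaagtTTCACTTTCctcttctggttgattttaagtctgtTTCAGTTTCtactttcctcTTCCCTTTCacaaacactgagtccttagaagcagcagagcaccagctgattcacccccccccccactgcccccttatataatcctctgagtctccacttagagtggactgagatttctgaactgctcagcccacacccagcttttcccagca
Gbp3, chr3:142559794-142560093, plus strand: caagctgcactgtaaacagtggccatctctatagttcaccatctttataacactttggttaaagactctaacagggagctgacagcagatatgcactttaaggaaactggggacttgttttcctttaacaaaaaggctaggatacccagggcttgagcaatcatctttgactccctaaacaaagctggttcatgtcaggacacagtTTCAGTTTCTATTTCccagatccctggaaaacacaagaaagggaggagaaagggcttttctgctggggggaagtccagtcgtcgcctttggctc
The matches of Ifit1 begin 109, 103 and 84 bases before the start, those of Ifit3 155, 121 and 102 bases before it, and those of Gbp3 44 and 38 bases before it. Ifit1 had a contrast of -2.77 (SE 0.72, adjusted p = 0.0178). Its log2 ratios were -3.08, -3.06, -4.71, -3.05 and -3.88 in KO_Ctrl and -3.38, 0.20, -0.42, -0.57 and -0.45 in WT_Ctrl. The wild-type array of mouse 6 thus lay within the knockout range for Ifit1, and the other 4 lay above it. Ifit3 had a contrast of -2.14 (SE 0.53, adjusted p = 0.0121).

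Several B cell markers also passed below 0. Of 11 measured B cell markers, 6 passed below 0 (background 4.46%) and 0 above, with a median contrast of -0.79 and all 11 estimates below 0. The count below 0 was 1 with quantile and 0 with scale normalization, 3 with the spike-in ratio as covariate and 4 without mouse number 10. The median of the list was -0.87, -0.96, -0.81, -1.06 and -1.12 in KO_Ctrl and -0.61, -0.07, -0.57, -0.21 and -0.28 in WT_Ctrl. Before culture it was -0.64 to 0.14 in WT_Pre and -0.66 to 0.21 in KO_Pre, and in both groups the array numbered 10 was the lowest. The groups after culture did not overlap. Ms4a1, which encodes the surface antigen CD20, had log2 ratios of -2.09, -2.36, -2.01, -2.23 and -2.52 in KO_Ctrl and -1.45, -0.42, -1.09, -0.63 and -0.91 in WT_Ctrl (contrast -1.54, SE 0.37, adjusted p = 0.00925). Cd1d1, which presents lipid antigens and is listed here as a marginal zone marker, fell in both genotypes, by 0.84 and by 2.33 (contrast -1.49, SE 0.17, adjusted p = 1.45e-05). Of 13 marginal zone markers, 2 passed below 0 and 1 above. The median contrast of that list was 0.36, with 7 estimates above 0 and 6 below. Of 8 follicular markers 4 passed below 0, among them Btla, an inhibitory receptor of lymphocytes (-1.05, SE 0.18, adjusted p = 0.000518). Fcer2a, the gene of CD23, an IgE receptor, had -0.88 (SE 0.35, adjusted p = 0.152) and did not pass.

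Genes of B cell receptor signalling passed in 1 direction. Of 22 measured, 9 passed below 0 (background 4.46%) and 0 above, with a median contrast of -0.54. Array medians were -1.04 to -0.81 in KO_Ctrl, -0.58 to -0.05 in WT_Ctrl and -0.51 to 0.03 before culture. The inhibitory Fc receptor gene Fcgr2b had log2 ratios of -0.66, -0.87, -0.97, -0.93 and -1.15 in KO_Ctrl, against -0.27, 0.05, 0.25, -0.01 and 0.13 in WT_Ctrl. Its culture effect was -0.95 in knockout and 0.22 in wild-type cells, and the contrast of -1.16 (SE 0.20, adjusted p = 0.000521) passed under every alternative. The inhibitory lectin Siglecg (-1.28, SE 0.32, adjusted p = 0.0122) and the scaffold protein Bank1 (-1.03, SE 0.26, adjusted p = 0.0147) passed too, and 1 of the 2 Siglecg probes did not. With quantile or scale normalization 1 gene of the list passed under each, with the spike-in ratio as covariate 5, and with array weights 15.

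Factors that set B cell identity passed below 0 in 4 of 16 cases (background 4.46%), with a median of -0.40. Spib, an Ets factor of B cells, had -1.18 (SE 0.27, adjusted p = 0.00717), and the octamer-binding factor Pou2f2 had -0.88 (SE 0.21, adjusted p = 0.011), where 1 of the 2 probes did not pass. Bcl11a, a zinc finger factor of lymphoid development, had -1.09 (SE 0.25, adjusted p = 0.00752), but its 3 probes disagreed, and the highest had 0.18. Of 11 genes of the BAFF receptor and TRAF axis, 3 passed below 0. They were the BAFF receptor gene Tnfrsf13c (-0.99, SE 0.19, adjusted p = 0.00153), the adaptor Traf5 (-0.81, SE 0.14, adjusted p = 0.000411) and Tnfrsf13b, which encodes the receptor TACI (-0.71, SE 0.17, adjusted p = 0.00845). Tnfrsf13b rose in wild-type cells (0.33, adjusted p = 0.03) and fell in knockout cells (-0.39, adjusted p = 0.0085). For the contrast, 1 of its probes did not pass.

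**Figure D3:**
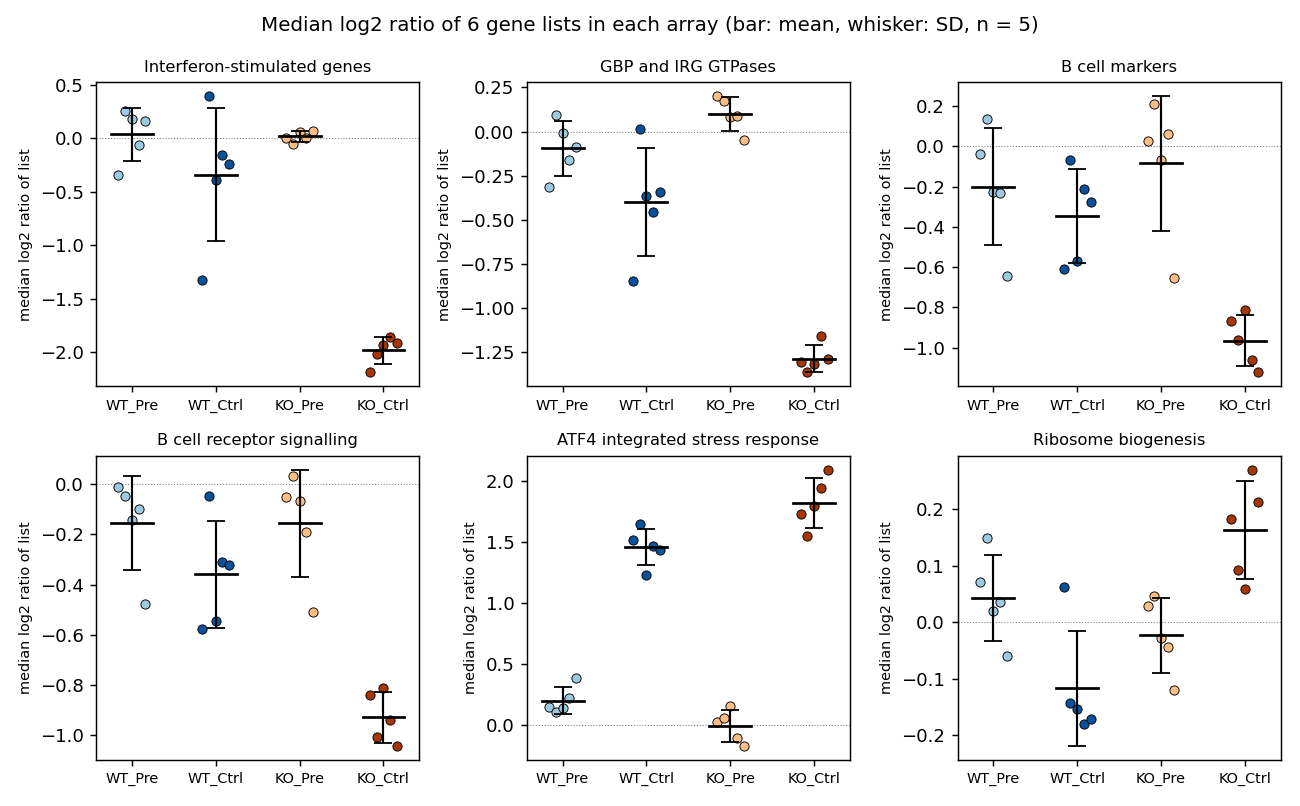
Median log2 ratio over the members of 6 gene lists in each array, by group, with the mean (bar) and SD (whisker, n = 5). In KO_Ctrl the interferon, GBP and IRG, B cell marker and receptor signalling lists lie below every WT_Ctrl array. The ATF4 and ribosome biogenesis lists lie higher on average, and each of these 2 overlaps WT_Ctrl.

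Most genes of class II antigen presentation fell in both genotypes, and some of them further in the knockout. Of 14 genes of MHC class II and peptide loading, culture lowered 11 in wild-type cells (median -0.65) and 13 in knockout cells (median -1.35). The contrast passed below 0 for 4 of the 14 (background 4.46%) and above 0 for 0, with a median of -0.66. The median of the list was -1.63, -1.52, -0.92, -1.70 and -1.48 in KO_Ctrl and -1.30, -0.57, -0.83, -0.61 and -0.65 in WT_Ctrl, so the groups overlapped through KO_Ctrl array 8 and WT_Ctrl array 6. H2-DMb1, a chain of the peptide exchange factor of class II, had -0.99 (SE 0.23, adjusted p = 0.00873). H2-Aa, a class II alpha chain, had -0.80 (SE 0.22, adjusted p = 0.0279), a call lost without WT_Pre array 8, WT_Ctrl array 7, 9 or 10, KO_Pre array 7, or KO_Ctrl array 7 or 9 (contrasts of -0.94 to -0.72, adjusted p up to 0.063). Between 2 and 10 members passed when single arrays were left out, 10 without wild-type mouse 6, and 0 with quantile or scale normalization. In the class I list 3 of 16 passed below 0, all subunits of the immunoproteasome, with Psmb8 at -0.83 (SE 0.21, adjusted p = 0.0159) and Psmb10 at -0.62 (SE 0.13, adjusted p = 0.00275).

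Costimulatory molecules split by direction. Of 12 measured, 4 passed above 0 (background 2.22%) and 3 below. Cd40, the receptor for T cell help, had log2 ratios of -2.62, -2.58, -2.06, -2.32 and -2.19 in KO_Ctrl and -1.50, -0.86, -0.86, -0.90 and -0.83 in WT_Ctrl. All 10 arrays before culture lay between -0.52 and 0.09. Cd40 fell in both genotypes, by 0.72 and by 2.32, without overlap after culture, and its contrast of -1.59 (SE 0.18, adjusted p = 1.33e-05) passed under every alternative. Slamf1, a homophilic receptor of lymphocytes, fell by 1.95 and by 3.74 (contrast -1.79, SE 0.38, adjusted p = 0.00352). Cd274, which encodes the inhibitory ligand PD-L1, went the other way. It was -0.30, -1.14, -0.83, -1.04 and -0.99 in WT_Ctrl and 0.44, 0.54, 0.19, 0.29 and 0.62 in KO_Ctrl. It fell in wild-type cells (-1.21, adjusted p = 2e-05) and had an effect of 0.33 in knockout cells (adjusted p = 0.14), a contrast of 1.54 (SE 0.26, adjusted p = 0.000477).

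In the cytoskeleton list every call was below 0, and a link of these calls to the loss of Dock10 activity was not tested. Of 29 actin cytoskeleton and motility genes, 9 passed below 0 (background 4.46%) and 0 above, with a median contrast of -0.42. Its array medians were -0.81 to -0.61 in KO_Ctrl and -0.67 to -0.22 in WT_Ctrl, where the groups overlapped through WT_Ctrl array 6. Gsn, which encodes the actin-severing protein gelsolin, had log2 ratios of -2.75, -2.77, -2.58, -2.55 and -2.80 in KO_Ctrl and -1.67, -0.84, -0.76, -0.52 and -0.60 in WT_Ctrl. The knockout arrays lay close together and below all wild-type arrays (contrast -1.81, SE 0.21, adjusted p = 1.9e-05). Flna, an actin crosslinker, had -1.33 (SE 0.22, adjusted p = 0.000338), and the intermediate filament gene Vim had -1.74 (SE 0.35, adjusted p = 0.00244). The calls of Gsn and Flna held under every alternative, and that of Vim was lost with scale normalization, where 3 genes of the list passed.

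Adhesion and migration receptors moved in both directions. Of 15 integrins and homing molecules, 4 passed below 0 (background 4.46%) and 1 above (background 2.22%). Itgb7, the integrin chain that guides lymphocytes to gut tissue, had log2 ratios of -2.87, -3.01, -2.86, -2.56 and -2.95 in KO_Ctrl and -1.55, -0.74, -0.49, -0.29 and -0.25 in WT_Ctrl. It fell in knockout cells by 2.57 and had an effect of -0.31 in wild-type cells (adjusted p = 0.22), and the contrast of -2.26 (SE 0.28, adjusted p = 3.06e-05) passed under every alternative. Its partner Itga4 had -1.07 (SE 0.23, adjusted p = 0.00384), and the beta-3 chain Itgb3 had 1.74 (SE 0.36, adjusted p = 0.00287). For each of these 2 genes, 1 of the 2 probes did not pass. Of 13 chemoattractant and S1P receptors, 3 passed below 0 and 1 above. The chemokine receptor gene Ccr6 had -1.47 (SE 0.33, adjusted p = 0.00581). S1pr4, a receptor for sphingosine-1-phosphate, rose in wild-type cells (0.49, adjusted p = 0.047) and fell in knockout cells (-0.71, adjusted p = 0.0041). Cxcr4, the receptor for the stromal chemokine Cxcl12, had 1.51 (SE 0.41, adjusted p = 0.0251), a call lost without WT_Pre array 8, WT_Ctrl array 7, 9 or 10, KO_Pre array 9 or KO_Ctrl array 7 (contrasts of 1.29 to 1.79, adjusted p up to 0.0575).

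**Figure D4:**
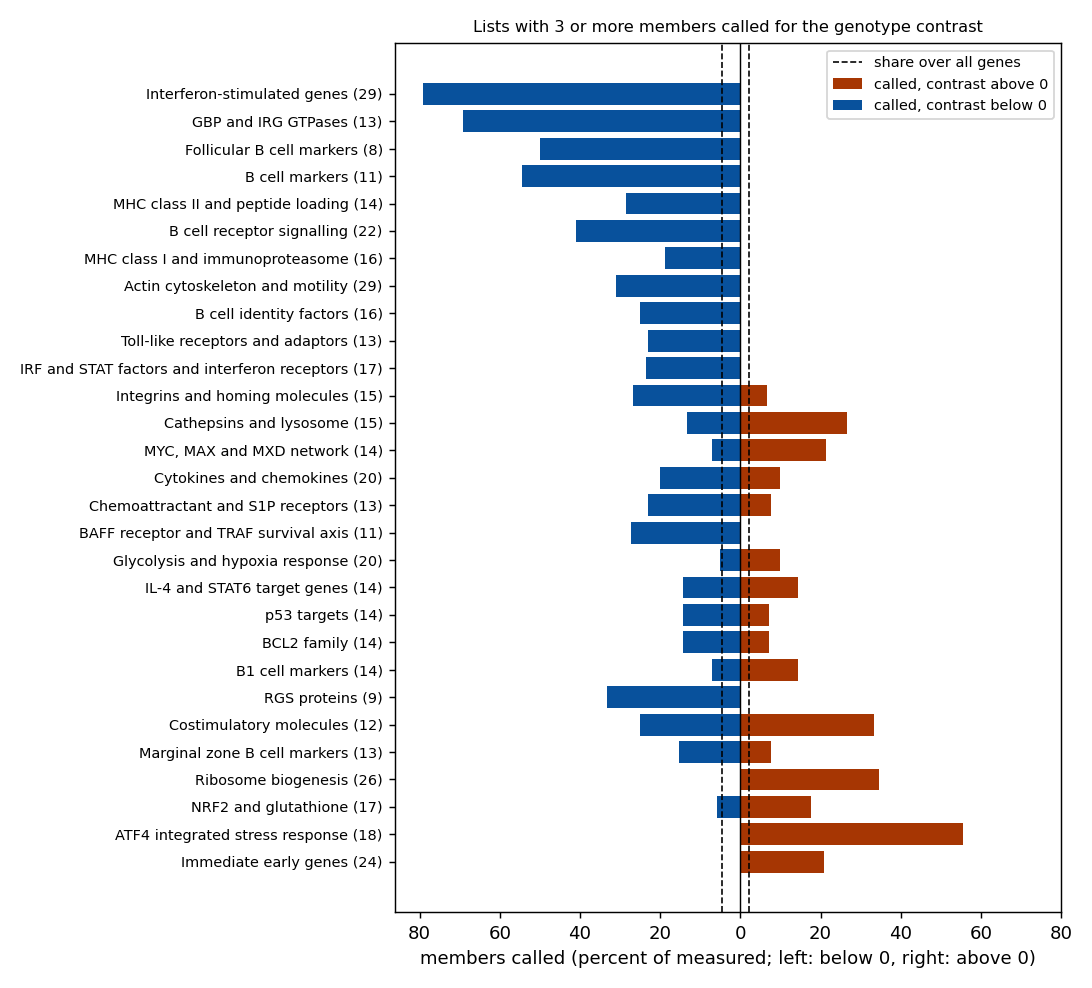
Share of the measured members of each list (number in brackets) that passed the test of the contrast, to the left below 0 and to the right above 0, for lists with 3 or more calls. Dashed lines give the share over all genes, 4.46% below 0 and 2.22% above.

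The largest contrasts above 0 did not belong to a single list. Hpgds, the haematopoietic prostaglandin D synthase, was highest (3.49, SE 0.48, adjusted p = 7.32e-05). Its log2 ratios were 3.57, 3.00, 3.10, 3.50 and 3.68 in KO_Ctrl and 1.89, -0.31, -0.66, 0.12 and -0.02 in WT_Ctrl, and -0.34 to 1.22 before culture. It rose in every knockout array above all wild-type arrays. Cables1, a regulator of cyclin-dependent kinases, rose in both genotypes, by 1.19 and 4.48 (contrast 3.29, SE 0.64, adjusted p = 0.00157). The chemokine gene Ccl3 had 3.15, 3.42, 2.66, 3.11 and 3.48 in KO_Ctrl and 1.28, -0.64, 0.45, 0.23 and 0.32 in WT_Ctrl, and -1.66 to 0.96 before culture (contrast 2.93, SE 0.53, adjusted p = 0.00085). Its neighbour in function Ccl4 also had 2.93 (SE 0.55, adjusted p = 0.00134). Both calls were lost with quantile and with scale normalization.

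Serpinb2, a serine protease inhibitor, had 3.14 (SE 0.84, adjusted p = 0.0209). It fell in wild-type cells (-2.80) and had an effect of 0.34 in knockout cells (adjusted p = 0.66), with an SD of 1.76 between KO_Ctrl arrays. Maff, a small Maf factor (2.87), and Plk2, a polo-like kinase (2.61), fell in wild-type cells, with effects of -2.29 and -3.73. Irs2, an insulin receptor substrate, had 2.55, and its call was lost without KO_Pre array 9 (adjusted p = 0.0508). Without mouse number 10 the calls of Serpinb2, Maff, Plk2 and Irs2 were lost. In the cytokine list of 20 genes, 2 passed above 0, Ccl3 and Ccl4, and 4 below, among them Il12a, a subunit of interleukin 12 (-1.60, SE 0.32, adjusted p = 0.00199).

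Immediate early genes, which answer receptor signals within minutes, mostly fell with culture in both genotypes, and the contrast was above 0 for 5 of them. Of 24 measured, culture lowered 20 in wild-type cells (median -1.64) and 17 in knockout cells (median -0.95). The contrast passed above 0 for 5 (background 2.22%) and below 0 for 0, with a median of 1.06. The count above 0 was 2 with quantile and 1 with scale normalization, 3 without mouse number 10, and 4 to 11 when single arrays were left out, 11 of them without WT_Pre array 7. Egr1, a zinc finger factor, had log2 ratios of -2.69, -2.15, -2.42, -2.35 and -2.50 in WT_Ctrl and -0.66, -0.47, -1.08, -0.20 and -0.14 in KO_Ctrl. Before culture it was -0.21, -0.43, 0.94, 1.08 and 0.54 in WT_Pre and -0.08 to 0.52 in KO_Pre. The contrast was 2.13 (SE 0.34, adjusted p = 0.000253). Egr2 fell in wild-type cells (-1.33, adjusted p = 2.7e-05) and rose in knockout cells (0.55, adjusted p = 0.03), a contrast of 1.88 (SE 0.30, adjusted p = 0.000234). Fosl2, of the AP-1 family, had 2.19 (SE 0.48, adjusted p = 0.00492), and 1 of its 2 probes did not pass. Part of the list's contrast lay before culture. Array medians were 0.86, -0.41, 0.58, 0.54 and 0.57 in WT_Pre and 0.19, 0.38, 0.13, -0.42 and -0.58 in KO_Pre, against -1.55 to -1.43 in WT_Ctrl and -1.24 to -0.91 in KO_Ctrl. Without wild-type mouse 6 and the arrays before culture numbered 10, its median was 0.56, with 5 calls above 0 and 2 below.

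Some genes of cell growth fell less, or rose, in the knockout. Myc, a driver of growth and of ribosome production, was -1.82, -1.92, -1.97, -2.02 and -2.13 in WT_Ctrl and -1.10, -1.16, -1.31, -1.23 and -0.89 in KO_Ctrl. It fell in both genotypes, by 2.61 and by 1.38, without overlap after culture (contrast 1.23, SE 0.26, adjusted p = 0.00297). Its range was -0.33 to 1.25 in WT_Pre and -0.09 to 0.50 in KO_Pre. Of 14 genes of the MYC network 3 passed above 0 (background 2.22%) and 1 below (background 4.46%). The polyamine enzyme Odc1 had 0.73 (SE 0.18, adjusted p = 0.011), and 1 of its probes did not pass. Mxd4, an antagonist of Myc, had -0.83 (SE 0.23, adjusted p = 0.0272), lost without WT_Pre array 6, WT_Ctrl array 7, KO_Pre array 8 or KO_Ctrl array 10 (contrasts of -0.95 to -0.69, adjusted p up to 0.0619). For Mxd4 too, 1 of the probes did not pass.

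Of 26 ribosome biogenesis genes, 9 passed above 0 (background 2.22%) and 0 below, with a median of 0.38 and 25 estimates above 0. Culture lowered 10 of them in wild-type cells and raised 0, and raised 9 and lowered 1 in knockout cells. Mrto4, an assembly factor of the large subunit, was 0.33, 0.55, 0.53, 0.58 and 0.70 in KO_Ctrl and 0.14, -0.12, -0.18, -0.15 and -0.14 in WT_Ctrl. Its contrast of 0.80 (SE 0.13, adjusted p = 0.000314) passed under every alternative. Gnl3, a nucleolar GTPase gene, had 0.75 (SE 0.17, adjusted p = 0.0075). Nop58, a core protein of methylating nucleolar particles, fell in wild-type cells (-0.36, adjusted p = 0.003) and rose in knockout cells (0.33, adjusted p = 0.0042). The list's calls were 4 with quantile and 2 with scale normalization, 14 without wild-type mouse 6 and 5 without mouse number 10. By contrast, 1 of 21 ribosomal protein genes passed above 0 and 0 below, and of 21 respiratory chain subunits 0 passed in either direction in the limma fit, with 1 at an unadjusted p under 0.05.

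Most genes of the ATF4 list rose with culture in both genotypes, and 10 of them further in the knockout. Of 18 genes, culture raised 11 in wild-type cells (median 1.16) and 16 in knockout cells (median 1.83). The contrast passed above 0 for 10 (background 2.22%) and below 0 for 0, with a median of 0.70 and all 18 estimates above 0. The median of the list was 1.73, 1.55, 1.80, 1.94 and 2.10 in KO_Ctrl and 1.52, 1.65, 1.23, 1.47 and 1.44 in WT_Ctrl, so the groups after culture overlapped. Before culture it was 0.10 to 0.38 in WT_Pre and -0.17 to 0.16 in KO_Pre. Ddit3, the stress factor CHOP, was 1.46, 1.61, 1.24, 1.60 and 1.58 in KO_Ctrl and 0.94, 0.27, 0.51, 0.47 and 0.47 in WT_Ctrl (contrast 1.29, SE 0.28, adjusted p = 0.00486). Cebpb, a leucine zipper factor, had 1.63 (SE 0.41, adjusted p = 0.0136). With quantile or scale normalization 0 members passed (medians 0.44 and 0.46), in the fit of only the 20 arrays 3 passed, and without mouse number 10 there were 2. Of 20 unfolded protein response genes, 0 passed in either direction in the limma fit, 2 were at an unadjusted p under 0.05, and the median contrast was -0.09.

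Asns, the asparagine synthetase and a known Atf4 target, is the called member with the largest contrast whose promoter held TGATGNAA, a core of the C/EBP-ATF response element. That motif was chosen after the values were seen. It was found, on either strand, in 6 of 17 promoters of the ATF4 list (35.3%) against 4.51% of all genes with an entry. That list was made of genes known for this response, so its share tests nothing. Capitals mark the match, which begins 23 bases before the start.
Asns, chr6:7693160-7693459, minus strand: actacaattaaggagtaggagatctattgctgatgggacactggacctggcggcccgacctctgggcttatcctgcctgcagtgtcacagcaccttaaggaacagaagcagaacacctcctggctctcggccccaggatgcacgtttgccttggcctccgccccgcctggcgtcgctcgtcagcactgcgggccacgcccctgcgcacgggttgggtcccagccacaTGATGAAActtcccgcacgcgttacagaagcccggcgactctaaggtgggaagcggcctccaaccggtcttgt
Asns was 4.82, 4.97, 5.07, 5.32 and 5.22 in KO_Ctrl and 4.89, 4.80, 4.54, 4.03 and 4.24 in WT_Ctrl. Before culture it was -0.05, 1.22, 0.13, 0.26 and 1.25 in WT_Pre and -0.13, -0.07, -0.23, -0.05 and 0.48 in KO_Pre. It rose in both genotypes, by 3.94 and 5.08 (contrast 1.14, SE 0.31, adjusted p = 0.0216). That contrast goes along with high values in WT_Pre arrays 7 and 10 and with low values in WT_Ctrl arrays 9 and 10. The call of Asns was lost without WT_Ctrl array 9 and in 7 other alternatives. Over all alternatives run for it, the adjusted p ranged from 0.00139 to 0.624.

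Amino acid transport, oxidative stress and survival genes gave fewer calls (background 2.22% above 0 and 4.46% below). Of 12 amino acid transporters 1 passed above 0, Slc3a2, the heavy chain of the large neutral amino acid transporter (0.88, SE 0.16, adjusted p = 0.000964), which rose in both genotypes. In the NRF2 and glutathione list of 17, 3 passed above 0 and 1 below. Osgin1, a growth inhibitor induced by oxidative stress, had 2.21 (SE 0.46, adjusted p = 0.00319), and Ftl1, the ferritin light chain, had 1.10 (SE 0.27, adjusted p = 0.0107). In the BCL2 family of 14, 1 passed above 0 and 2 below. Mcl1, a survival factor that B cells need, was -1.18, -1.21, -1.26, -1.36 and -1.44 in KO_Ctrl and -0.73, -0.04, -0.21, -0.38 and -0.38 in WT_Ctrl (contrast -1.12, SE 0.18, adjusted p = 0.000382) and passed under every alternative. Bmf, a death-promoting member, rose in wild-type cells (1.11, adjusted p = 5.8e-05) and had an effect of -0.11 in knockout cells (adjusted p = 0.63), a contrast of -1.22 (SE 0.26, adjusted p = 0.00405). Bbc3, which encodes the death-promoting protein PUMA, rose in both, by 1.94 and 2.85 (contrast 0.91, SE 0.23, adjusted p = 0.0147).

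Of 14 B1 cell markers, 2 passed above 0 (background 2.22%) and 1 below (background 4.46%). Ahr, the aryl hydrocarbon receptor, was -0.27, -0.70, -0.60, -0.89 and -0.67 in WT_Ctrl and 0.48, 0.36, -0.11, 0.05 and 0.22 in KO_Ctrl. It fell in wild-type cells (-0.96, adjusted p = 5e-06) and rose in knockout cells (0.40, adjusted p = 0.014), a contrast of 1.36 (SE 0.19, adjusted p = 7.32e-05), and 1 of its 2 probes did not pass. S100a6, a calcium-binding protein, rose in wild-type cells (1.21, adjusted p = 0.0024) and had an effect of -0.50 in knockout cells (adjusted p = 0.16). Bhlhe41, a transcriptional repressor listed here as a B1 cell marker, had 1.53 (SE 0.41, adjusted p = 0.0212). That call was lost without the arrays before culture numbered 10, and 1 of its probes did not pass. Vpreb3, a chaperone of immature B cells, had -1.37 (SE 0.28, adjusted p = 0.00293). In glucose metabolism, Hk2 (hexokinase 2) had 0.88 (SE 0.20, adjusted p = 0.00669) and Pdk1, which restrains pyruvate oxidation, had -0.88 (SE 0.23, adjusted p = 0.0181), among 2 calls above 0 and 1 below of 20 genes.

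Markers of other cells moved with the contrast in some lists (background 2.22% above 0 and 4.46% below). Of 16 monocyte and macrophage markers, 1 passed above 0 and 0 below, with a median contrast of 0.83 and 14 estimates above 0. Without wild-type mouse 6, 5 passed above 0 and 1 below, and with each mouse as a replicate block 4 and 1. The median of this list was -0.07, 0.80, 0.28, 0.41 and 1.02 in WT_Pre and 0.05, -0.14, -0.27, -0.14 and -0.51 in KO_Pre. After culture it was -0.61 to -0.10 in WT_Ctrl and -0.68 to -0.20 in KO_Ctrl. The difference thus lay before culture, where 4 of 5 wild-type arrays were above all knockout arrays. The array numbered 10 was the highest in WT_Pre and the lowest in KO_Pre. Without the arrays before culture numbered 10 the median contrast was 0.62. C1qb, a complement gene of macrophages, was the call (1.07, SE 0.26, adjusted p = 0.011). Of 10 erythroid markers 2 passed above 0, with a median of 0.96, and 4 passed without wild-type mouse 6. The array medians of this list had means of 0.31 in WT_Pre, -0.12 in KO_Pre, -0.001 in WT_Ctrl and 0.39 in KO_Ctrl. Hbb-b1, a beta-globin chain, was 2.99, 3.16, 2.79, 2.75 and 2.45 in KO_Ctrl and 2.39, -0.13, -0.16, -0.52 and -0.41 in WT_Ctrl (contrast 3.06, SE 0.62, adjusted p = 0.00264), so only WT_Ctrl array 6 came near the knockout level. Hba-a1, an alpha-globin chain, had 1.62 (adjusted p = 0.0454), lost when any of 13 arrays was left out (contrasts of 1.33 to 1.90, adjusted p up to 0.0982).

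Of 12 NK cell markers, 1 passed above 0 (background 2.22%), with a median of 0.60, and 3 passed with each mouse as a replicate block. The 1 was Gzmb, the protease granzyme B, at -2.94, -3.35, -2.77, -2.29 and -2.15 in WT_Ctrl and -1.98, -1.44, -0.65, -1.12 and -0.12 in KO_Ctrl (contrast 2.33, SE 0.52, adjusted p = 0.00518). Of 14 T cell markers, 1 passed above 0 and 1 below, with a median of -0.04. The array medians of this list had means of 0.98 in WT_Pre, 0.15 in KO_Pre, 0.69 in WT_Ctrl and -0.32 in KO_Ctrl, and the genotypes overlapped in both states. Cd28, a costimulatory receptor of T cells and plasma cells, was 3.84, 4.12, 3.40, 3.19 and 3.06 in KO_Ctrl and 2.44, 0.26, 1.55, 1.88 and 1.36 in WT_Ctrl (contrast 3.15, SE 0.53, adjusted p = 0.000447). Before culture Cd28 was 1.16, 0.07, 1.61, 2.18 and 1.67 in WT_Pre and -0.23 to 1.09 in KO_Pre. Cd2, a shared adhesion receptor of lymphocytes, had -0.63 (SE 0.14, adjusted p = 0.00532). Of 14 neutrophil markers 1 passed below 0, Ly6g (-1.05, SE 0.26, adjusted p = 0.0121), and 0 of 9 platelet and 0 of 10 basophil and mast cell markers passed in either direction in the limma fit, with 1 and 0 at an unadjusted p under 0.05. With each mouse as a replicate block, 3 platelet markers passed above 0. The part of other cells in the gene groups above was not tested.

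**Figure D5:**
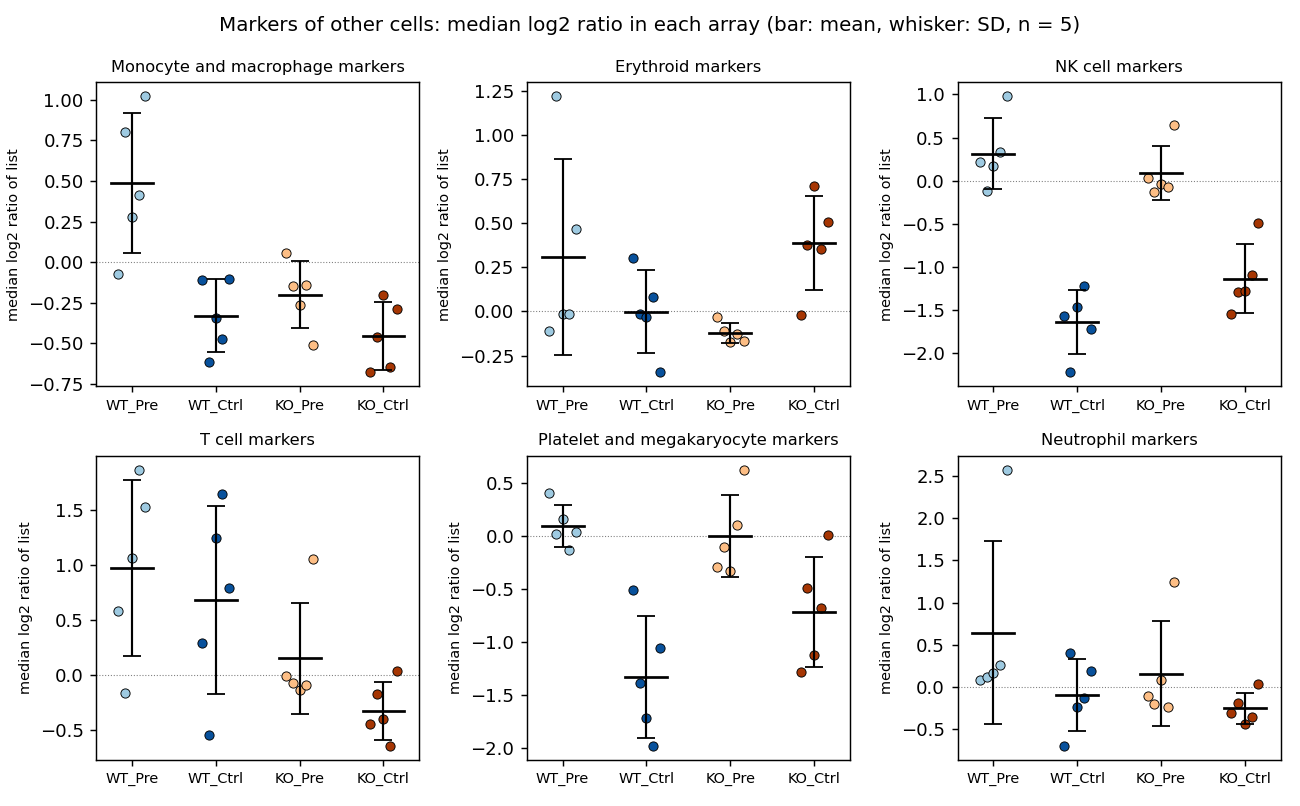
Median log2 ratio over the markers of 6 other cell types in each array, by group, with the mean (bar) and SD (whisker, n = 5). The means differ before culture for the monocyte and macrophage markers (0.49 in WT_Pre and -0.20 in KO_Pre) and for the T cell markers (0.98 and 0.15). They also differ for the neutrophil (0.64 and 0.16), erythroid (0.31 and -0.12) and NK cell markers (0.31 and 0.09). The arrays overlap in each of these lists, and the highest neutrophil median in WT_Pre is 2.57. The NK cell and platelet markers lie lower after culture in both genotypes.

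The calls of the named genes differed in how far they depended on the settings. Of 97 named genes that passed, 18 passed under every alternative of normalization, model and samples run for them, which is what passing under every alternative means above. With quantile normalization 55 of the calls were lost, with scale normalization 76, with the spike-in ratio as covariate 24, without mouse number 10 35, and in the fit of only the 20 arrays 18. Leaving out single arrays ended 15 of the calls, each through 1 to 16 of the 20 arrays. Beside the genes with such values above, they were those of H2-Ab1, Psmb9, Ppp1r15a, Txnrd1, Prdm1, Cish and Vegfa, which are not described for that reason.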

How the data were processed

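RNA of spleen B cells was measured on Agilent mouse 2-colour arrays of 40 samples. The values are log2 ratios of the test sample in Cy5 to the reference pool in Cy3, deposited by the authors as 1 table of processed values. Per the submitters' processing notes the scans were read with Agilent Feature Extraction 11.0.1.1, and per the series' design text they were analysed with GeneSpring GX. The sources used here do not give the authors' normalization within arrays or their filters, so centring and background treatment of the deposited log2 values stay unknown. The direction is that of the dyes in the labels. Of 39485 probes, 56 were controls, and 8804 without a gene symbol were not used. The 30625 named probes were averaged to 21892 genes, 6807 of them with several probes, and 30331 of those probes matched RefSeq by Entrez identifier.

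Groups came from the sample labels. In R 4.3.3, limma 3.58.1 (lmFit and eBayes) was fitted to the 30 arrays of mice 6 to 10 in 6 groups without a block. P-values were adjusted by the Benjamini-Hochberg method over all genes, and genes with an adjusted p under 0.05 count as called. The script was tested on simulated data. The members and gene lists were chosen with earlier results of these data known. Named genes were the 10 largest called contrasts in each direction with an established symbol, Dock10, Fcer2a and up to 3 called genes with the largest contrast per list. Only some of the gene lists are described in the text, and several lists and the genes named through them are not reported here. Ifit1, Ifit3 and Asns were chosen after their values were seen, and Xist and Eif2s3y served as a check.

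Alternatives changed the normalization, covariates for dark corner and spike-in ratios, the filter, the model, the probe used and the arrays entered. The Pre and Ctrl arrays of a number come from 1 mouse by their labels. The correlation of their deviations from the group means was -0.109 to 0.149 in wild-type and -0.121 to 0.096 in knockout mice. Between WT_Pre and KO_Pre arrays of the same number it was 0.098 to 0.566 (mean 0.282), highest for number 10. For different numbers it was -0.364 to 0.354 (mean -0.043). Between WT_Ctrl and KO_Ctrl arrays of the same number the mean was 0.047.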

Additional observations from a re-analysis of the deposited data

Results flagged for a closer look

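The culture effect differed between the genotypes by the test of the difference itself for 1462 genes. Among the named genes, 7 passed in opposite directions in the 2 genotypes, with contrasts of -2.88 for Efna1, -0.85 for Tlr2, -0.71 for Tnfrsf13b, -1.20 for S1pr4, 0.69 for Nop58, 1.88 for Egr2 and 1.36 for Ahr.

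In 49 of 448 groups of 5 arrays, 1 array lay far from the others by Dixon's test (critical value 0.71), which chance gives in about 1 of 20 groups. WT_Ctrl array 6 held 20 of the 49. It was low for Ifi213 (-2.25), Gbp3 (-0.32), H2-DMb1 (-1.81), H2-Ab1 (-1.32), Psmb8 (-1.06), Cd40 (-1.50), Gsn (-1.67), Bmf (0.38), Cd1d1 (-1.64), Vpreb3 (-1.40), Ly6g (0.76) and Ifit1 (-3.38). It was high for Hbb-b1 (2.39), Mrto4 (0.14), Ftl1 (1.98), Itgb3 (0.92), Cish (1.10), Hk2 (0.66), Vegfa (3.18) and the median of the ribosome biogenesis list (0.06). For each of these it was the WT_Ctrl array nearest to the knockout mean after culture.

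KO_Pre array 10 held 9 of the 49. It was high for Cd28 (1.09), Stat2 (0.09), Asns (0.48) and the median of the NK cell markers (0.65). It was low for Gbp7 (-1.69), H2-DMb1 (-0.19), Mcl1 (-0.56), Bhlhe41 (-0.81) and Itga4 (-0.45). WT_Pre array 10 was low for Flna (-0.72), Dock8 (-0.14) and the median of the B cell receptor list (-0.48), and high for Mrto4 (0.37). WT_Pre array 6 was high for Irs2 (2.58), H2-Ab1 (0.26), Gnl3 (0.47) and Traf5 (0.03) and low for Irf9 (-0.92). WT_Pre array 7 was low for Ccl4 (-2.28), Ccl3 (-1.66), Plk2 (-1.62) and the median of the immediate early genes (-0.41).

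The other 7 were Ifit3b (-2.65) and Psmb9 (-1.58) in KO_Ctrl array 7, Irf9 (0.53) and the median of the class II list (-0.92) in KO_Ctrl array 8, Bmf in KO_Ctrl array 10 (-0.26), Mx2 in KO_Pre array 9 (-0.32) and S100a6 in WT_Ctrl array 7 (0.62).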

How the results depend on the processing

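The contrast gave 1462 calls, 485 above 0 and 977 below. The calls above 0, below 0 and in all were 70, 289 and 359 with quantile normalization and 40, 185 and 225 with scale normalization, where 2 of the 1462 genes changed sign. They were 285, 579 and 864 with the spike-in ratio as covariate, 130, 388 and 518 among the genes with an SD above the median, and 1413, 1974 and 3387 with array weights. Without mouse number 10 they were 247, 567 and 814, and at a size of at least 1 they were 170, 366 and 536. Median centring left 320 above 0 (24.5% of the calls against 33.2%) and the fit of only the 20 arrays 289. Leaving out single arrays gave 1083 to 1966 calls in all, 319 (without WT_Ctrl array 9) to 734 (without WT_Ctrl array 6) above 0, and 764 to 1232 below. The culture calls in wild-type and knockout cells were 8654 and 11155, and 4614 and 5477 with the dark corner ratio as covariate, 5242 and 6137 after the SD filter and 2966 and 4485 at a size of at least 1. Leaving out single arrays gave 7383 to 9452 and 10003 to 11565. Dock10 reversed with quantile (0.365) and scale normalization (0.346), and Bcl11a reversed with its highest probe (0.183). The cause of these changes was not tested, except that the SD filter tested 10946 genes, which left some lists without a median.

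With each mouse as a replicate block there were 1772 calls, with mouse as a random replicate block 1722 (consensus correlation 0.0697) and with the mouse number as block 1735, and none of the 3 fits changed a call among the 99 named genes. After the data were seen, 2 alternatives were added. Without wild-type mouse 6 and the arrays before culture numbered 10 there were 2082 calls, and with each mouse as replicate block and without those 2 arrays 1562. Over the alternatives of the named genes, 3460 values kept direction and call, 436 lost the call, 3 gained it and 3 reversed. Signal over background was not among the values used, so what it limits was not tested.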
